A study of Mus musculus with 9 samples.

Results

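The E2F transcription factors and the pocket proteins that bind them were followed through liver regeneration in 9 mouse liver libraries. The set comprised 10 genes, *E2f1* to *E2f8*, *Rb1* and *Rbl1*, which were taken by gene name from a table of 43346 genes, and all 10 had enough counts to be tested among 15024 genes. Whole liver of WT male C57BL/6J mice (strain C57/BL6 in the sample records), 12 weeks old, was profiled by bulk RNA-Seq in 3 groups of 3 biological replicates. The baseline group was the liver removed from vehicle-treated mice at 70% partial hepatectomy (0 h). The vehicle group was the liver remnant of vehicle-treated mice 40 h after surgery. The NSC group was the remnant at 40 h of mice given NSC-87877 (NSC) i.p. at 7.5 mg/kg per dose, 15 mg/kg per day. NSC is a small molecule inhibitor of the phosphatase SHP2 that also inhibits SHP1, and vehicle was saline. Dosing began 12 h before surgery according to the sample records. No liver removed at surgery from an NSC-treated mouse was analysed, and both remnant groups were set against the same 3 vehicle baselines, so their 2 comparisons are not independent. According to the paper, the median and left lateral lobes were removed. Baseline and remnant thus differ in lobe, time of day and time after surgery, which cannot be told apart. It is not stated whether a resection specimen and a remnant with the same number came from the same mouse.

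E2F factors bind the promoters of genes needed for DNA replication, in most cases together with a DP partner protein. E2F1, E2F2 and E2F3 are called activators, E2F4, E2F5 and E2F6 repressors, and E2F7 and E2F8 atypical, since the last pair bind DNA without a DP partner or a pocket protein and switch off E2F targets late in S phase. In resting cells the pocket proteins RB, p107 (encoded by *Rbl1*) and p130 (encoded by *Rbl2*) hold E2Fs inactive, and phosphorylation by cyclin-dependent kinases releases them when a cell enters the cycle, as hepatocytes do after hepatectomy. RNA levels do not show this phosphorylation. In the liver, E2F1 and the atypical E2Fs are known for opposite effects on hepatocyte polyploidy.

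The libraries held 23997363 to 42887589 counts on genes, and 3 counts, the least treated as detected, were worth 0.0751 to 0.117 CPM (a gene's counts relative to the library total, TMM-normalized). Marker lists for 8 liver and blood cell types were examined in the same libraries. The 10 hepatocyte markers summed to 124924 to 130583 CPM at baseline, 98064 to 135707 CPM in vehicle and 103810 to 118266 CPM in NSC livers. All NSC sums were below all baseline sums, and the vehicle range overlapped with both. *Alb* made up most of the hepatocyte sums (means of 92303 of 127877, 90830 of 117548 and 86299 of 110544 CPM). Against baseline, 3 hepatocyte markers in the vehicle group and 4 in the NSC group were lower, while 4 and 3 of 5 cholangiocyte markers and 2 and 4 of 6 macrophage markers were higher. Among the other lists, 3 and 2 of 7 stellate cell and 1 and 3 of 4 neutrophil markers were higher. Lower were 2 and 0 of 7 sinusoidal endothelial, 1 and 0 of 5 lymphocyte and 2 and 2 of 4 erythroid markers. In NSC livers 1 stellate cell marker was lower. Over all genes tested, 12.7% were higher and 11% lower in vehicle livers, and 18.2% and 16.5% in NSC livers. Summed cholangiocyte markers went from 37.8 to 40.6 CPM at baseline to 76.0 to 114 CPM (vehicle) and 79.0 to 121 CPM (NSC). *Spp1* made up most of these sums (means of 33.2 of 38.8, 73.2 of 89.4 and 84.3 of 94.4 CPM). *Epcam* had negative log2 fold changes that did not pass (-0.44 and -0.27, adjusted p = 0.462 and 0.64, edgeR). None of the markers was at 0 in all libraries. The part of these cell types in the results was not tested, and more cells of a kind and more RNA per cell cannot be told apart in bulk tissue. Expression is given as CPM, and calls rest on an adjusted p under 0.05 in edgeR's quasi-likelihood test.

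Several E2F and pocket protein genes are themselves known E2F targets, so 4 short stretches before the transcription start are printed here to show the words found in them. RefSeq promoters on GRCm38.p6, from 250 bases before to 50 bases after the start, were matched for 7 of the 10 members. They were searched on both strands for 4 E2F words (TTTCCCGC, TTTCGCGC, TTTGCCGC and TTTGGCGC) and for the CHR words TTTGAA and TTCGAA, the cell cycle element read by the MuvB complex. Capitals mark the word found, and the stretches run 5′ to 3′ on the strand of the gene. They are *Rbl1* at chr2:157204535-157204594, *E2f7* at chr10:110745215-110745274, *E2f3* at chr13:29986064-29986123 and *E2f8* at chr7:48881597-48881656, of which *E2f7* lies on the plus strand and the others on the minus strand.
*Rbl1*: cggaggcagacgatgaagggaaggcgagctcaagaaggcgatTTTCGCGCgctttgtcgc
*E2f7*: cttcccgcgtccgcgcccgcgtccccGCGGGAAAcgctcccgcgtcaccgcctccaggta
*E2f3*: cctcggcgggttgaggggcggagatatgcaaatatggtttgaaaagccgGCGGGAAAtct
*E2f8*: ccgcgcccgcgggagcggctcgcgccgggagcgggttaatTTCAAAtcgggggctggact
In *Rbl1* the word TTTCGCGC began 18 bases before the start. In *E2f7* and *E2f3* TTTCCCGC lay on the opposite strand, so its reverse complement is in capitals, 198 and 11 bases before the start. The *E2f8* promoter held no E2F word but a CHR word on the opposite strand, 20 bases before the start. *E2f2* had an E2F word just after its RefSeq start and a CHR word in its other promoter. The printed *E2f3* promoter also holds TTTGAA, and the other *E2f3* promoter held neither kind of word. Thus 4 of 7 matched members held an E2F word, against 704 of 27025 genes (2.6%) with a RefSeq promoter. A CHR word was held by 3 of 7, against 5854 genes (21.7%). Starts here are those of RefSeq and can differ from the deposited gene ends. The E2F word of *E2f2* and the printed *E2f3* stretch lie before the deposited 5′ ends, at 136172394 and 29985668. The window matched for *E2f1*, chr2:154569377-154569676 on the minus strand, lies inside the deposited gene, whose 5′ end is at 154569892. The bases before that end were not searched, so *E2f1* counts here as holding no word. A match is a description of letters and not evidence of binding, and *E2f3*, which holds both words, passed the test in no comparison.

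**Figure D1:**
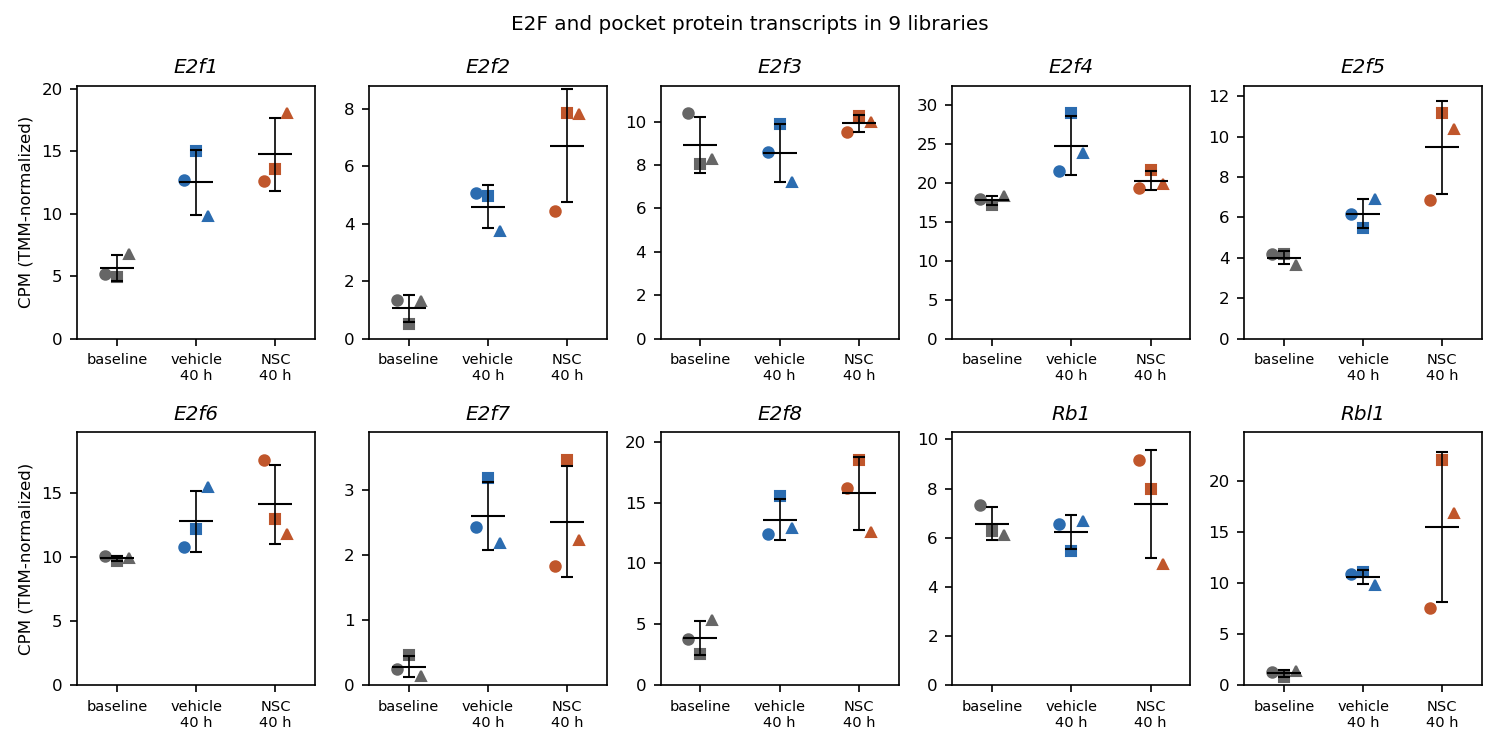
TMM-normalized CPM (y axis, from 0) of the 10 genes in each library, by group (x axis), with circles, squares and triangles for replicates 1, 2 and 3 and bars for the mean and SD of 3 libraries. *E2f3* and *Rb1* overlap between baseline and 40 h. The other genes, *E2f4*, *E2f5* and *E2f6* included, are higher in every 40 h library than in any baseline library.

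At 40 h after hepatectomy, 6 of the 10 genes rose in vehicle-treated mice and none fell. The genes were *E2f1*, *E2f2*, *E2f4*, *E2f7*, *E2f8* and *Rbl1*, and over all genes tested 12.7% rose and 11% fell. In NSC-treated mice 6 of the 10 likewise rose and none fell (*E2f1*, *E2f2*, *E2f5*, *E2f7*, *E2f8* and *Rbl1*), where 18.2% of all genes rose and 16.5% fell. With a log2 fold change over 1.5 also required, *E2f2*, *E2f7*, *E2f8* and *Rbl1* remained in each comparison, where 5.03% (vehicle) and 5.38% (NSC) of all genes rose that far. The median log2 fold change of the 10 genes was 0.89 in vehicle and 1.31 in NSC livers, where the median of all genes was 0.01 in both. In each remnant group 8 of the 10 genes lay above all baseline libraries, which 24.2% (vehicle) and 24% (NSC) of all genes did.

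Of the activators, *E2f1* and *E2f2* rose and *E2f3* did not change detectably. *E2f1* (chromosome 2, 154559407 to 154569892, GRCm38) activates S phase genes and can also drive apoptosis. It was at 5.15, 4.92 and 6.80 CPM in the baseline livers, 12.7, 15.0 and 9.78 CPM in the vehicle remnants and 12.6, 13.5 and 18.0 CPM in the NSC remnants. Every remnant exceeded every baseline liver, and the remnant groups overlapped. The log2 fold change from baseline was 1.16 in vehicle (SE 0.22, adjusted p = 0.00292, edgeR) and 1.39 in NSC livers (SE 0.22, adjusted p = 0.00071, edgeR). *E2f2* (chromosome 4, 136172394 to 136196057), a close relative of *E2f1*, was scarce at baseline, with 1.33, 0.489 and 1.32 CPM. It reached 5.06, 4.98 and 3.73 CPM in vehicle and 4.44, 7.84 and 7.83 CPM in NSC remnants. The groups at 40 h overlapped through NSC replicate 1, while both lay above baseline. Its log2 fold change was 2.14 in vehicle (SE 0.37, adjusted p = 0.00186, edgeR) and 2.68 in NSC livers (SE 0.37, adjusted p = 0.00036, edgeR). *E2f3* (chromosome 13, 29906575 to 29985668), the third activator, ranged from 8.06 to 10.4 CPM at baseline, from 7.20 to 9.87 CPM in vehicle and from 9.51 to 10.3 CPM in NSC remnants. All 3 ranges overlapped, and the log2 fold changes of -0.06 (95% interval -0.45 to 0.33) and 0.15 (-0.24 to 0.54) did not pass the test (adjusted p = 0.848 and 0.535, edgeR). A 2-fold change of *E2f3* in either direction lies outside both intervals.

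Of the repressors, *E2f4* passed in vehicle and *E2f5* in NSC livers, and *E2f6* in neither. *E2f4* (chromosome 8, 105297663 to 105305369), the main E2F of resting cells, was at 17.9, 17.1 and 18.3 CPM at baseline, 21.5, 29.0 and 23.8 CPM in vehicle and 19.3, 21.7 and 19.8 CPM in NSC remnants. Both remnant groups lay above baseline, and vehicle replicate 1 fell within the NSC range. The vehicle log2 fold change of 0.48 (SE 0.15) passed narrowly (adjusted p = 0.0321, edgeR), and the NSC value of 0.19 (SE 0.15) did not (adjusted p = 0.336, edgeR). The vehicle call was lost without any 1 of the 3 baseline livers (adjusted p = 0.089, 0.09 and 0.0796, edgeR) and without vehicle replicate 2 or 3 (adjusted p = 0.121 and 0.0551), and with all genes of at least 1 count in the fit (adjusted p = 0.0519). After correction for GC content, which was added after the data had been seen, the NSC value was 0.46 (adjusted p = 0.0226, edgeR).

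*E2f5* (chromosome 3, 14578641 to 14606309), which with *E2f4* represses through p107 and p130, was at 4.20, 4.18 and 3.63 CPM at baseline. It was at 6.18, 5.49 and 6.90 CPM in vehicle and 6.87, 11.2 and 10.4 CPM in NSC remnants. All remnants were above all baseline livers, and NSC replicate 1 lay within the vehicle range while the other two NSC livers were above it. The NSC log2 fold change of 1.24 (SE 0.22) passed the test (adjusted p = 0.0015, edgeR) and the vehicle value of 0.63 (SE 0.22) missed it (adjusted p = 0.0575, edgeR). The vehicle value passed with DESeq2 (0.61, adjusted p = 0.041), with at least 10 counts required in every library (0.64, adjusted p = 0.0498), with only the 2 groups in the fit (0.63, adjusted p = 0.027, edgeR) and without NSC replicate 1 (0.63, adjusted p = 0.018, edgeR). *E2f6* (chromosome 12, 16810965 to 16826743), which represses without pocket proteins and through Polycomb complexes, ranged from 9.68 to 10.05 CPM at baseline, 10.8 to 15.4 CPM in vehicle and 11.8 to 17.6 CPM in NSC remnants. Neither log2 fold change passed, at 0.37 in vehicle (SE 0.19, adjusted p = 0.176, edgeR) and 0.52 in NSC livers (SE 0.19, adjusted p = 0.0522, edgeR), although no remnant overlapped the baseline range. The NSC value passed with scaling by library size only (0.66, adjusted p = 0.0213, edgeR), with at least 10 counts required in every library (0.53, adjusted p = 0.0478), without vehicle replicate 3 (0.52, adjusted p = 0.0445) and without NSC replicate 3 (0.63, adjusted p = 0.032, edgeR).

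Both atypical E2Fs rose. *E2f7* (chromosome 10, 110745439 to 110787384), a repressor that limits E2F1 output, was near the detection floor at baseline, with 8, 15 and 4 counts or 0.253, 0.458 and 0.132 CPM. It was at 2.43, 3.19 and 2.18 CPM in vehicle and 1.83, 3.46 and 2.23 CPM in NSC remnants. The remnant groups overlapped, and both lay above every baseline liver. The log2 fold change was 3.18 in vehicle (SE 0.43, adjusted p = 0.00048, edgeR) and 3.13 in NSC livers (SE 0.43, adjusted p = 0.00035, edgeR), and its size rests on those few baseline counts. *E2f8* (chromosome 7, 48866429 to 48881596), which acts with *E2f7*, was at 3.79, 2.53 and 5.31 CPM at baseline. It rose to 12.4, 15.5 and 12.9 CPM in vehicle and 16.2, 18.5 and 12.6 CPM in NSC remnants, again with overlap between the remnant groups only. Its log2 fold change was 1.81 in vehicle (SE 0.25, adjusted p = 0.00058, edgeR) and 2.03 in NSC livers (SE 0.25, adjusted p = 0.0002, edgeR). *E2f8* shares 610 exon bases with *Gm2788* on the other strand (282 to 1275 counts per library), and the strand setting of the authors' counting is not stated, so reads of the pair could be mixed.

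The pocket proteins diverged. *Rbl1* (chromosome 2, 157145893 to 157204534), whose product p107 binds mainly E2F4 and E2F5, rose in both comparisons with baseline. It was at 1.26, 0.794 and 1.42 CPM at baseline, 10.9, 11.1 and 9.82 CPM in vehicle and 7.53, 22.1 and 16.9 CPM in NSC remnants. The vehicle livers were tightly grouped (10.6 ± 0.698 CPM, SD, n = 3), whereas the NSC livers ranged from below to above them (15.5 ± 7.40 CPM, SD, n = 3). The log2 fold change was 3.20 in vehicle (SE 0.37, adjusted p = 0.000284, edgeR) and 3.74 in NSC livers (SE 0.38, adjusted p = 8.41e-05, edgeR). *Rb1* (chromosome 14, 73183673 to 73325822), which encodes RB and binds mainly the activators, was at 6.10 to 7.33 CPM at baseline, 5.44 to 6.68 CPM in vehicle and 4.93 to 9.18 CPM in NSC remnants. The ranges overlapped, and the log2 fold changes of -0.08 (95% interval -0.59 to 0.43) and 0.17 (-0.34 to 0.67) did not pass the test (adjusted p = 0.84 and 0.61, edgeR). *Rb1* shares 488 exon bases with *Rcbtb2* and 408 with *Lpar6* on the other strand, genes with 644 to 1263 and 316 to 744 counts per library. The direction of the small *Rb1* values changed with GC correction (-0.36 in NSC livers) and with single libraries left out.

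**Figure D2:**
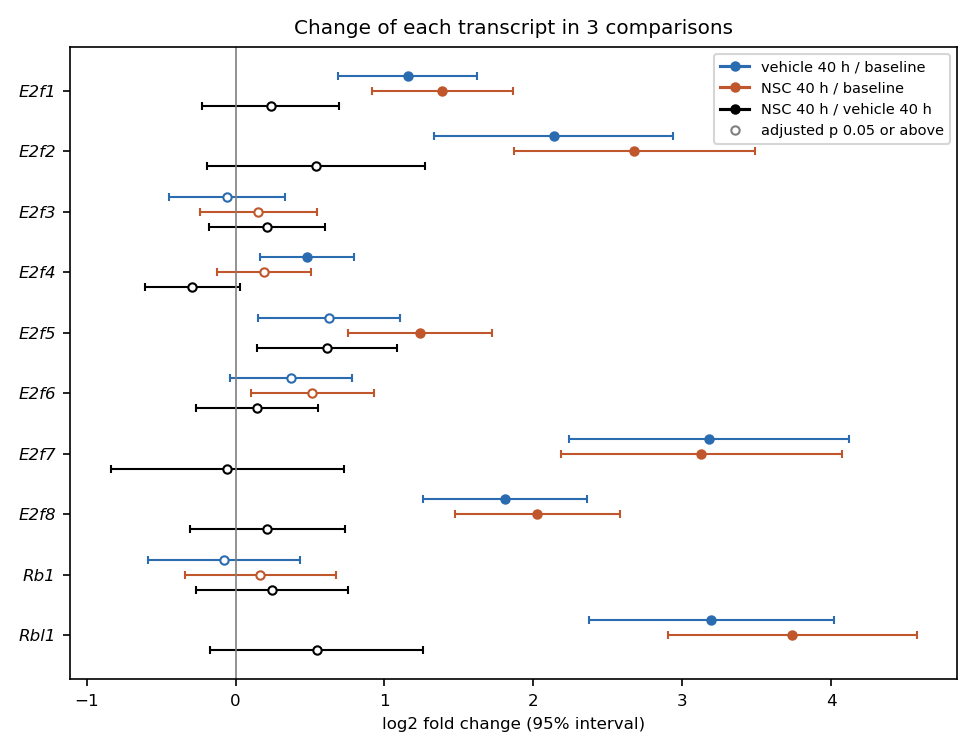
Log2 fold change (x axis) with its 95% interval for each gene (y axis) in the vehicle comparison with baseline (blue), the NSC comparison with baseline (orange) and NSC against vehicle at 40 h (black), from edgeR's quasi-likelihood fit of 9 libraries. Filled points passed an adjusted p of 0.05, which no black point did.

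*Rbl2*, which encodes p130, the pocket protein of quiescent cells, is not in the set but completes the family and moved the other way. It was at 37.2, 42.7 and 34.6 CPM at baseline, 23.6, 24.5 and 24.7 CPM in vehicle and 24.4, 26.8 and 22.3 CPM in NSC remnants. All remnants were below all baseline livers. The fall was -0.65 on the log2 scale in vehicle (SE 0.14, adjusted p = 0.00502, edgeR) and -0.64 in NSC livers (SE 0.14, adjusted p = 0.00394, edgeR). Per kilobase of gene length (FPKM, computed from TMM-normalized counts), *Rbl1* was 0.0216 to 0.0476 times *Rbl2* at baseline, 0.462 to 0.538 times in vehicle and 0.359 to 0.959 times in NSC remnants. As a share of the 3 pocket protein transcripts, *Rbl2* went from 78.9% to 83.9% at baseline to 53.8% to 56.3% in vehicle and 43.4% to 55.7% in NSC livers. *Rbl1* went from 1.81% to 3.80% at baseline to 26.0% to 29.5% in vehicle and 20.0% to 41.6% in NSC livers. The share of *Rb1* stayed within overlapping ranges, 14.3% to 18.0%, 14.4% to 17.6% and 12.0% to 24.3%. The summed FPKM of the 3 genes was 6.23 to 7.30 at baseline, 6.28 to 6.30 in vehicle and 6.28 to 8.87 in NSC livers, and overlapped between groups. The shares of *Rbl1* and *Rbl2* were apart between baseline and each remnant group and overlapped between the remnant groups.

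**Figure D3:**
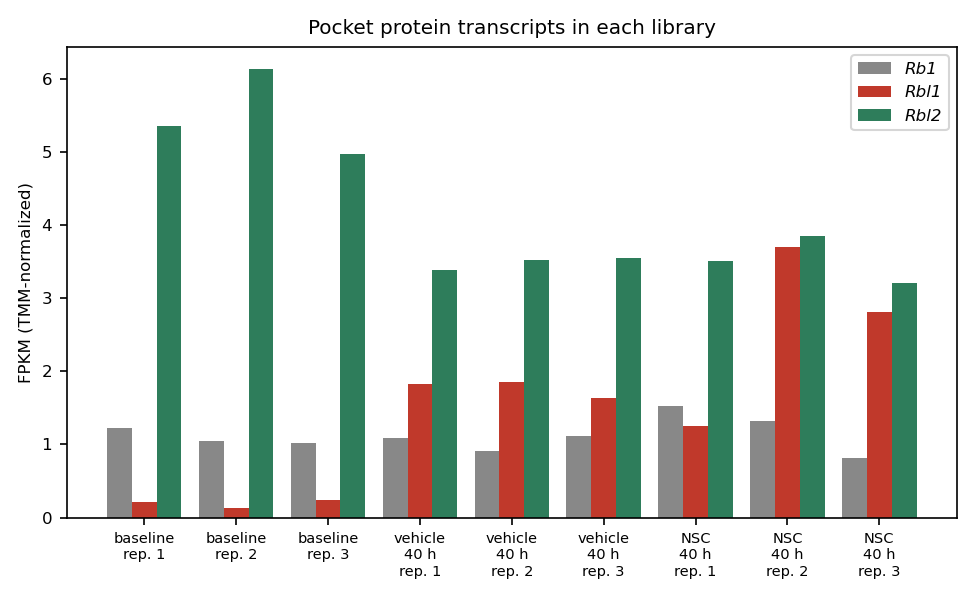
FPKM (y axis, from 0) of the pocket protein genes *Rb1*, *Rbl1* and *Rbl2* in each of the 9 libraries (x axis). *Rbl2* is the most abundant in every library, and *Rbl1* passes *Rb1* in 5 of the 6 remnants, all but NSC replicate 1.

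On the same FPKM scale, *E2f4* was the most abundant of the 10 transcripts in every group, at 8.93 ± 0.297 at baseline, 12.4 ± 1.92 in vehicle and 10.2 ± 0.613 in NSC livers (SD, n = 3 each). It was followed by *E2f6*, which did not overlap with *E2f4* in any group. At baseline *E2f5*, *E2f3* and *E2f1* came next (2.25, 1.86 and 1.78), each overlapping its neighbour, then *Rb1* (1.09), *E2f8* (0.713), *E2f2* and *Rbl1* (0.214 and 0.193, overlapping) and *E2f7* (0.0312). In vehicle livers *E2f1* (3.96) overlapped with *E2f6* above it (5.29) and *E2f5* below it (3.48), and *E2f8* (2.50) stood apart from both *E2f5* and *E2f3* (1.78). *Rbl1* (1.77) overlapped with *E2f3* there, as did *Rb1* (1.04) with *E2f2* (0.939). The NSC order placed *E2f6*, *E2f5* and *E2f1* together (5.83, 5.31 and 4.67), then *E2f8*, *Rbl1* and *E2f3* (2.90, 2.59 and 2.07), then *E2f2* and *Rb1* (1.37 and 1.22), with neighbours inside each set overlapping. *E2f7* was last in all groups (0.288 in vehicle and 0.278 in NSC livers).

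Summed by class, all kinds of E2F transcripts were more abundant in every remnant than in any baseline liver, from 18.8 to 20.5 FPKM in all at baseline to 28.1 to 33.7 in vehicle and 30.9 to 34.3 in NSC livers. The atypical class changed most in proportion, from 0.744 ± 0.238 to 2.79 ± 0.367 (vehicle) and 3.18 ± 0.614 FPKM (NSC; SD, n = 3 each). Activators went from 3.86 ± 0.448 to 6.69 ± 1.24 and 8.11 ± 1.26, and repressors from 15.3 ± 0.289 to 21.2 ± 2.15 and 21.3 ± 1.01. The repressor share was 74.9% to 79.5% at baseline, 66.6% to 73.6% in vehicle and 63.3% to 67.4% in NSC livers. The atypical share was 2.75% to 4.84% at baseline, 8.64% to 9.52% in vehicle and 7.85% to 11.04% in NSC livers, so both shares separated the remnants from baseline. The activator share was 17.8% to 20.3% at baseline, 17.8% to 24.4% in vehicle, which overlaps with it through vehicle replicate 3, and 22.3% to 28.8% in NSC livers. These class values are descriptions, and an exact permutation test of 3 against 3 livers cannot give a 2-sided p below 0.1.

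**Figure D4:**
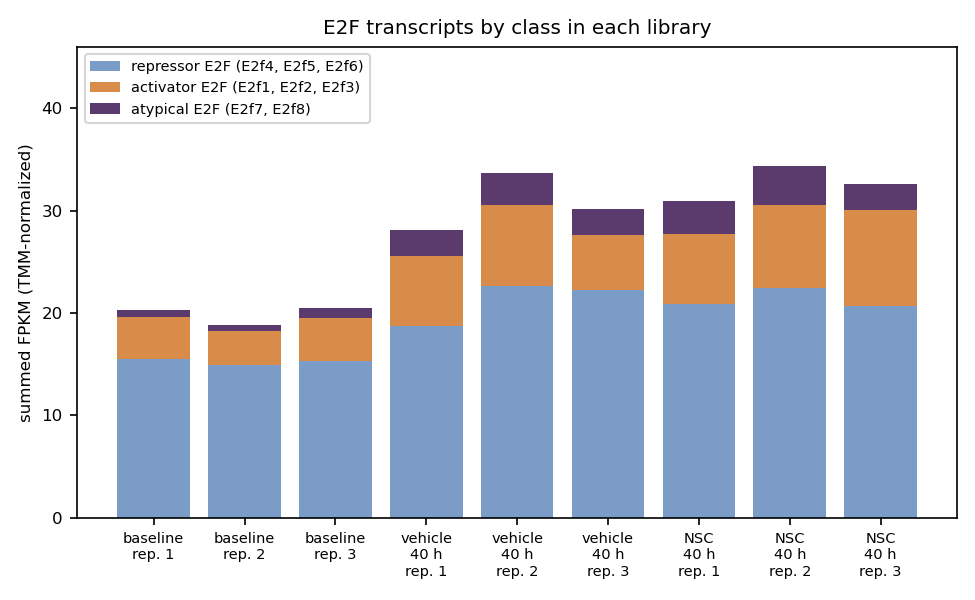
Summed FPKM (y axis, from 0) of repressor (*E2f4*, *E2f5*, *E2f6*), activator (*E2f1*, *E2f2*, *E2f3*) and atypical (*E2f7*, *E2f8*) transcripts in each of the 9 libraries (x axis). Each class is larger in all 6 remnants than in the 3 baseline livers, and repressors make up the most in every library.

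The direct comparison of NSC with vehicle at 40 h asks whether the inhibitor changed these transcripts in the regenerating remnant. None of the 10 genes passed the test in either direction by edgeR or by DESeq2. By edgeR 1 of them, *E2f5*, had an unadjusted p under 0.05, as did 2929 of the 15024 genes tested. Over all genes tested, 0% were called higher and 0.0399% lower (6 genes). The log2 fold change of *E2f5* was 0.61 (SE 0.22, 95% interval 0.14 to 1.08, adjusted p = 0.166, edgeR). *Rbl1* followed with 0.54 (interval -0.17 to 1.26, adjusted p = 0.373) and *E2f2* with 0.54 (-0.19 to 1.27, adjusted p = 0.386, edgeR). *E2f1*, *Rb1*, *E2f8*, *E2f3* and *E2f6* lay between 0.14 and 0.25, and no interval among them reached below -0.31 or above 0.75. *E2f4* was at -0.29 (-0.61 to 0.03) and *E2f7* at -0.05 (-0.84 to 0.73). The median of the 10 genes was 0.22 and that of all genes 0.02. For none of the 10 were all NSC livers above or all below the vehicle livers, where 10.3% of all genes were above and 12.2% below. An interval that includes 0 does not show equal levels.

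NSC replicate 1 lay at one end of the NSC livers for most members. How often it did so over all genes was not computed, so this is not shown to be particular to the set. It had the lowest CPM of the 3 NSC livers for *Rbl1*, *E2f1*, *E2f2*, *E2f4*, *E2f5*, *E2f7* and *E2f3*, and the highest for *E2f6* and *Rb1*. On the second principal component of all genes (13.2% of the variance) it lay at -31.0, beside the vehicle livers at -28.1, -23.3 and -13.4 and away from the other NSC livers at 32.5 and 54.0. It also had the highest sums of macrophage, stellate, sinusoidal endothelial, lymphocyte and neutrophil markers among the NSC livers (447 CPM for macrophage markers, against 278 and 293). Without this library, *Rbl1* (0.87, SE 0.21, adjusted p = 0.0291) and *E2f5* (0.80, SE 0.19, adjusted p = 0.0293) were higher in NSC than in vehicle livers by edgeR, where 3.73% of all genes were. The library carries no label that would exclude it, and the values with all 9 libraries are the reported ones. The summed macrophage markers were 141 to 258 CPM in vehicle and 278 to 447 CPM in NSC livers and did not overlap. None of the 6 markers passed in this comparison by edgeR, and 5 had a positive log2 fold change. For 3 of them all NSC livers were above all vehicle livers, as for 10.3% of all genes. All NSC livers were below all vehicle livers for 2 of 7 stellate cell, 2 of 5 cholangiocyte and 1 of 10 hepatocyte markers. Of all genes, 12.2% were below. All were above for 1 of 7 sinusoidal endothelial and 1 of 5 lymphocyte markers. No marker of these lists passed by edgeR. The part of these markers in the comparison was not tested.

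**Figure D5:**
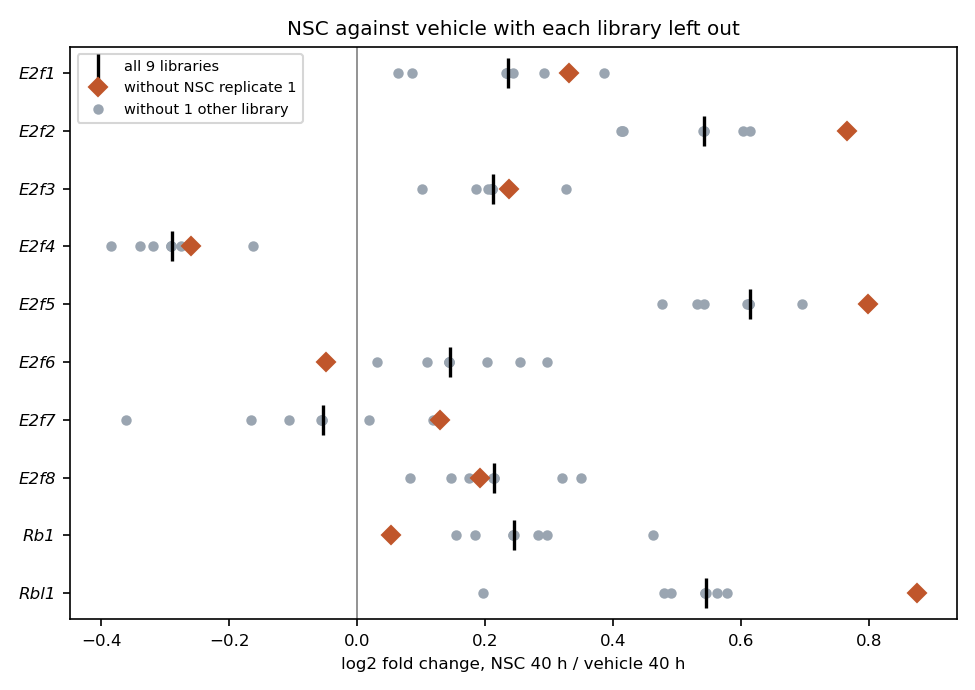
Log2 fold change of NSC against vehicle at 40 h (x axis) for each gene (y axis) with all 9 libraries (black bars), without NSC replicate 1 (orange diamonds) and without each of the other libraries (grey circles). *Rbl1* and *E2f5* move to 0.87 and 0.80 without NSC replicate 1, and *E2f6* and *E2f7* cross 0.

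Genes that work with the set were described from lists of known roles. Of the DP partners, *Tfdp1* rose by 0.87 in vehicle (adjusted p = 0.00186) and 1.03 in NSC livers (adjusted p = 0.00046, edgeR) on the log2 scale, from 17.4 ± 2.05 to 31.7 ± 2.30 and 35.6 ± 4.55 CPM (SD, n = 3 each). Its relative *Tfdp2* had values of -0.27 and -0.16 and did not pass (adjusted p = 0.26 and 0.481, edgeR). Among 8 G1 cyclins and their kinases, which phosphorylate the pocket proteins, 4 rose in each comparison with baseline and none fell. Of all genes tested, 12.7% (vehicle) and 18.2% (NSC) rose, and 11% and 16.5% fell. The cyclin E genes *Ccne1* and *Ccne2* had log2 fold changes of 3.22 and 2.92 in vehicle and 3.22 and 3.99 in NSC livers, and the cyclin D gene *Ccnd1* 3.29 and 2.91. The fourth gene was *Cdk4* in vehicle (0.40, adjusted p = 0.0496, edgeR) and *Cdk2* in NSC livers (0.47, adjusted p = 0.0371, edgeR). The vehicle count was 3 with RLE factors, with library size only and with either of the other count filters. Of 5 CDK inhibitors tested out of 7, *Cdkn2c* and *Cdkn1a* rose in vehicle (2.05 and 2.00, adjusted p = 0.0147 and 0.0295, edgeR). In NSC livers *Cdkn2c*, *Cdkn1b* and *Cdkn2d* rose, although *Cdkn2d* in NSC replicate 1 (3.03 CPM) was below baseline replicate 2 (3.24 CPM). *Cdkn1c* fell there (adjusted p = 0.0486, edgeR, a call lost with only the 2 groups in the fit). *Cdkn1a*, at 1.53, missed the threshold (adjusted p = 0.054, edgeR).

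The MuvB core with its partners B-MYB and FOXM1, which forms the DREAM repressor with E2F4 and p130 or p107 in resting cells and activates mitotic genes later, had 7 genes tested. *Foxm1* and *Lin54* rose in vehicle, and *Lin54*, *Foxm1*, *Lin9* and *Lin52* rose in NSC livers. The shares of all genes that rose were 12.7% and 18.2%. *Lin52* passed narrowly (adjusted p = 0.0491, edgeR), and its level in NSC replicate 1 (6.36 CPM) was below that in baseline replicate 2 (6.78 CPM). *Lin54*, the subunit that binds CHR elements, was at 5.20 ± 0.149 CPM at baseline, 9.92 ± 1.03 in vehicle and 15.3 ± 2.59 in NSC livers (SD, n = 3 each), log2 fold changes of 0.93 and 1.56 (adjusted p = 0.00286 and 0.000108, edgeR). All NSC livers were above all vehicle livers for *Lin54*, with a log2 fold change of 0.63 that did not pass (adjusted p = 0.102, edgeR). *Foxm1* had 0.316, 0.0611 and 0.429 CPM at baseline and 24.5, 32.1 and 16.5 CPM in vehicle remnants. In NSC remnants it had 8.52, 45.1 and 39.0 CPM, with replicate 1 again the lowest. *Mybl2*, which encodes B-MYB, did not pass in either comparison (1.05 and 0.15, adjusted p = 0.133 and 0.837, edgeR). In NSC against vehicle no cyclin, kinase, CDK inhibitor or MuvB gene passed by edgeR. An unadjusted p under 0.05 was found for 1 of the cyclins and kinases, 1 CDK inhibitor and 2 MuvB genes. Of all 15024 genes tested, 2929 had such a p. DESeq2 called 1 of the cyclins and kinases and 1 MuvB gene higher, and 286 of all genes.

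Of 24 G1/S genes known as E2F targets, 23 rose in vehicle and 23 in NSC livers, and none fell. The shares of all genes that rose are those given above, 12.7% and 18.2%. Their median log2 fold change was 2.04 in vehicle and 2.21 in NSC livers, the same with *Orc1*, at 0 counts in all baseline libraries, set to its lower bound. *Orc1*, an origin recognition subunit, was at least 7.77-fold higher in vehicle and at least 14.1-fold higher in NSC livers than 3 counts per baseline library. *Mcm6*, a helicase subunit, rose by 3.03 and 3.42 on the log2 scale (adjusted p = 3.22e-06 and 1.54e-06, edgeR). *Mcm5*, of the same helicase, rose by 3.999 and 3.82. The exception was *Tk1*, thymidine kinase, at 33.1 to 44.4 CPM at baseline, 20.4 to 50.2 CPM in vehicle and 16.8 to 64.4 CPM in NSC livers, with log2 fold changes of -0.34 and 0.05 (adjusted p = 0.675 and 0.946, edgeR). The list summed to 165 to 186 CPM at baseline, 502 to 621 CPM in vehicle and 560, 770 and 706 CPM in NSC replicates 1, 2 and 3. None of the 24 passed in NSC against vehicle by edgeR, and 1 did by DESeq2, which called 286 genes higher and 470 lower. An unadjusted p under 0.05 was found by edgeR for 7 of the 24 and for 2929 of all 15024 genes. Of the 24, 21 had a positive value, and their median was 0.36. An E2F word stood in the promoters of 10 of the 20 list genes matched in RefSeq.

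The transcripts whose pattern over the 9 libraries was most like that of a member were found by Pearson's r of log2 CPM, a description in which the 3 baseline and 6 remnant libraries dominate. *Rbl1* was closest to *Ska3* (r = 0.998), *Nusap1* (0.997) and *Neil3* (0.996). *E2f8* was closest to *Mcm4* (0.993), a helicase subunit, *Ints2* (0.981) and *Whsc1* (0.979). *E2f1* was closest to *Marcksl1* (0.982), *Arhgap22* (0.980) and *Tuba1a* (0.968). *E2f4*, whose change was small, had lower values, with *Ifitm2* (0.953), *Tgm2* (0.940) and *Zswim1* (0.938).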

How the data were processed

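Whole liver RNA was sequenced in 9 paired-end, strand-specific libraries. The authors aligned reads with STAR 2.6.1 within the MAP-RSeq pipeline, counted them per gene by Subread 1.5.1, and deposited raw counts and FPKM per gene and library without pooling. The paper's methods name a human genome, but identifiers and positions are those of mouse GRCm38; all 10 identifiers are in GENCODE M21. Differential expression was computed from the counts by edgeR 4.0.16 under R 4.3.3 (TMM factors, filterByExpr, robust quasi-likelihood fit of all 9 libraries with condition as the only term, Benjamini-Hochberg over 15024 genes). FPKM printed here is TMM-normalized CPM per kilobase of the deposited gene length; the FPKM columns deposited by the authors served as a check only. DESeq2 1.42.0, other factors and filters, 2-group fits, a replicate term, an absolute log2 fold change threshold of 1.5, GC correction (added after the data had been seen) and leaving out each library were alternatives. The procedure was tested on simulated data. Of 100 simulated 2-fold changes, 35 (vehicle against baseline), 40 (NSC against baseline) and 50 (NSC against vehicle) were called. Of 100 simulated 4-fold changes, 83, 78 and 94 were called, beside 14, 12 and 6 false calls. A 2-fold change can thus be missed. Members and lists were chosen with earlier results of these data known. Named list genes were those with the smallest adjusted p in the vehicle comparison, at most 3 a list (1 such gene is not reported here); *Tk1*, *Mybl2*, *Orc1* and the other called genes of short lists were named after their values were seen. Library numbers come from the sample records; p-values measure the spread between 3 mice a group. No library duplicated another of its own group, and libraries of different groups were not compared for this.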

Additional observations from a re-analysis of the deposited data

How the results depend on the processing

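Over the alternatives, 4 to 7 members rose in vehicle and 4 to 7 in NSC livers against baseline (both lowest counts with the fold threshold), and none fell. In NSC against vehicle, leaving out a library gave 0 to 2 members higher, 2 only without NSC replicate 1, and 0 in the other alternatives. The replicate number as a block left the member counts at 6, 6 and 0. Same-numbered libraries had correlations of deviations between -0.0479 and 0.134, and 2 of 3 libraries matched their own number best in every comparison. These values do not decide whether the numbers mark pairs. The numbers were not taken as pairs because no pairing is stated. Signs turned only for values that did not pass. Leave-one-out values ran, in vehicle against baseline, from -0.17 to 0.0654 for *E2f3* and from -0.13 to 0.0118 for *Rb1*. In NSC against baseline they ran from -0.0225 to 0.39 for *Rb1*, and in NSC against vehicle from -0.049 to 0.30 for *E2f6* and from -0.36 to 0.13 for *E2f7*. GC correction gave -0.36 for *Rb1* (NSC against baseline), and 0.0013 for *E2f4* and -0.0626 for *Rb1* (NSC against vehicle). Scaling by library size only gave 0.0714 for *E2f7* (NSC against vehicle). The cause was not tested. That scaling raised the median of all genes by 0.14 in NSC against baseline (3399 genes higher and 1795 lower, against 2728 and 2479) and by 0.13 in NSC against vehicle. GC correction moved the median by -0.10 in vehicle (1680 higher and 2516 lower, against 1914 and 1650) and gave 1908 and 2664 in NSC livers. In NSC against vehicle, DESeq2 called 286 genes higher and 470 lower, and without NSC replicate 1 edgeR called 574 higher, against 0 and 6. *E2f7* was not kept when 10 counts were required in every library. Depth limits *E2f7*, *E2f2* and *Rbl1* at baseline most.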
